A study of Meleagris gallopavo with 8 samples.

Results

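The genes described here encode the proteins of the cytosolic ribosome. They were taken from a transcript annotation of turkey breast muscle by symbol: a gene name made of RPL or RPS, a number and at most 1 closing letter (A, X, Y or L), or RPLP0, RPLP1, RPLP2 or RPSA, on at least 1 transcript that matched, varied from or lay inside a reference transcript. The rule found 56 genes among 7360 gene names assembled in those 3 forms. Of these, 35 encode proteins of the large subunit and 21 proteins of the small subunit. They stood on 78 transcripts at 56 loci. Only RPS27L also carried a matching name, and its transcripts had none of the 3 forms.

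The ribosome translates messenger RNA into protein. Its small subunit reads the codons, its large subunit joins the amino acids, and a flexible stalk of P proteins on the large subunit recruits the elongation factors. In vertebrates most of these proteins come from single short genes with compact introns, whose messenger RNAs begin with a pyrimidine tract that ties their translation to nutrient and growth signals. In skeletal muscle the ribosome supply is a main limit on protein synthesis and growth, and striated muscle carries a large-subunit protein of its own, RPL3L, beside the widely expressed RPL3.

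The annotation merged assemblies of RNA sequencing of 8 samples of the pectoralis major, the main breast muscle, from turkeys of the random-bred RBC2 line harvested at 22 weeks of age. Meat was classed by the marinade it had taken up 24 h after slaughter: 4 samples had high uptake and are called normal, and 4 had low uptake and are called PSE (pale, soft and exudative). The flock had 43 birds, no other treatment is labelled, and the labels do not say how many birds lay behind each sample. The annotation gives structures and names 1 sample assembly for each transcript, but it gives no abundance, so depth is unknown, no level is reported and nothing below compares expression between PSE and normal meat.

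The whole annotation held 162644 exon lines, 41982 transcripts and 23108 loci. Of 12 genes that define skeletal muscle, 5 were assembled under their symbols (TNNI2, PVALB, MYOZ1, NEB and DMD), while ACTA1, CKM and MYL1 were among the 7 that were not. Markers of other cells of the tissue were assembled too: 4 of 5 for fibroblasts, 3 of 4 for endothelium, 6 of 6 for leukocytes, 2 of 3 for fat cells and 1 of 3 for nerve. None of 3 globin genes was. A gene without a transcript under its symbol could have been unexpressed, unassembled or named otherwise. The part of each cell type in the transcripts below was not tested.

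Genes of both subunits were assembled. Of 79 canonical cytosolic ribosomal protein genes, 55 were assembled (69.6%), made up of 34 of 47 for the large subunit (72.3%) and 21 of 32 for the small subunit (65.6%). By assembled symbol, the gene beyond these 55 was the paralogue RPL3L. RPL26 was also counted by its assembled symbol, and the RefSeq gene next to its locus neighbour ATP6V0E1 is given below. The large-subunit genes without a transcript under their symbol included RPL3, RPL10, RPL13A, RPL18, RPL21, RPL22, RPL23A, RPL28, RPL36A, RPL37, RPL39 and RPL41. Those of the small subunit included RPSA, RPS4X, RPS9, RPS18, RPS19, RPS26, RPS27, RPS28 and FAU, which encodes a small-subunit protein fused to a ubiquitin-like protein. Of all 24 such symbols, 14 stand in a RefSeq table of turkey genes and 10 do not. Of the 56 assembled genes, the same table lists 53, all but RPL17, RPL26 and RPS20.

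Other genes around translation were assembled as well. Of 18 symbols of genes for proteins that bind the ribosome or whose messages carry the same pyrimidine tract, 12 were assembled, and 2 of the others, RACK1 and GNB2L1, are names of the same gene. Of 35 genes for ribosome biogenesis, the nucleolar and nuclear factors that build the subunits, 25 were (71.4%). Of 10 paralogues of ribosomal protein genes, 3 were assembled under their symbols: RPL3L, RPL7L1 and RPL22L1. These lists are short and no share was tested against another.

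Most of the 56 genes were assembled in the form of the reference. At least 1 exact match, which has every intron of a reference transcript, was present for 34 genes (60.7%). Over all assembled gene names the share was 38.7%. A variant, which shares a splice junction with a reference transcript and differs elsewhere, was present for 25 (44.6%), against 52% over all names. A contained transcript, a fragment that fits inside a reference transcript, was present for 9 (16.1%), against 46.7% over all names. Only 18 had 2 or more transcripts (32.1%), against 55.99%. Ribosomal protein genes thus had an exact match in a larger share than all names, and fragments and multiple transcripts in smaller shares. The order for exact matches rested on the transcripts credited to normal replicate 1. Removing them also removes structures that other samples may have held, so it does not show the result without that sample. Without them 16 of the 56 genes kept any transcript (28.6%), against 61.7% of all names. Of the 56 genes 3 then had an exact match (5.36%) and 12 a variant (21.4%), against 13.9% and 33.1% of all names. As shares of the genes that kept a transcript, exact matches came to 18.8%, against 22.6%, and variants to 75%, against 53.6%. Genes that kept a transcript are those with a structure credited to another sample, so these last shares describe a selected set.

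Broken down by gene, 26 had 1 exact match and nothing else, and 8 had an exact match with a variant. Another 14 had variants only, among them RPL8, RPL12, RPL19, RPL23, RPL27A, RPL37A and RPS25 with 1 each. RPL27, RPL36, RPLP1, RPLP2 and RPS23 had 1 contained fragment only. RPLP0, RPS2 and RPS3A had fragments beside a variant. No transcript of the 78 had a single exon.

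**Figure D1:**
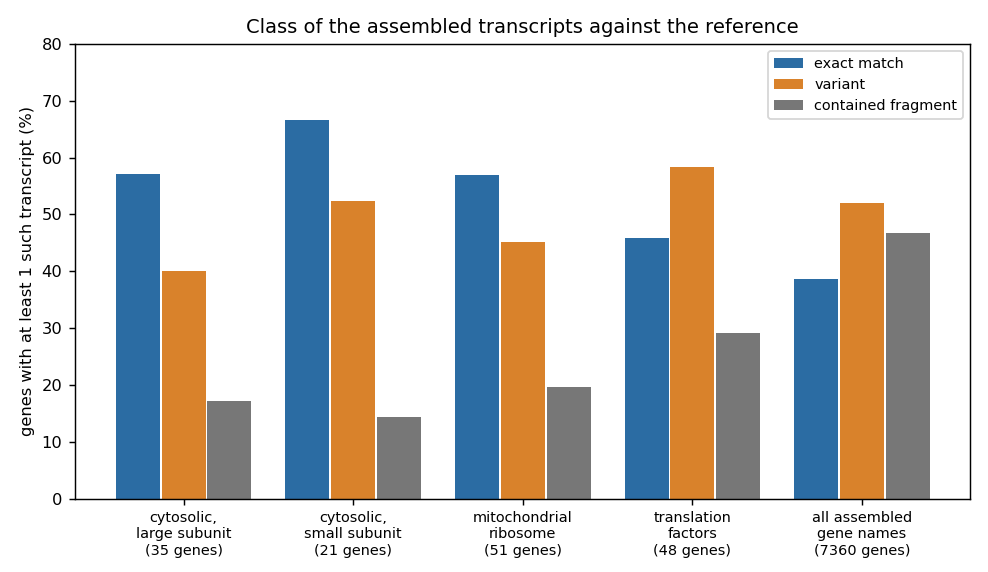
Share of genes (%, vertical axis) with at least 1 exact match, variant or contained fragment, for the 35 large-subunit and 21 small-subunit genes, 51 mitochondrial ribosomal protein genes, 48 translation factor genes and all 7360 assembled names. The exact-match bar reaches 57.1% for the large and 66.7% for the small subunit and 38.7% for all names.

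The plot of shares by class sets the subunits side by side. Exact matches covered 20 large-subunit genes (57.1%) and 14 small-subunit genes (66.7%). Variants covered 14 (40%) and 11 (52.4%). Several transcripts were held by 8 large-subunit genes (22.9%) and 10 small-subunit genes (47.6%), the widest gap between the subunits. The mitochondrial ribosomal protein genes, whose products form the separate ribosome of that organelle, were close to the cytosolic set, with exact matches for 29 of 51 (56.9%), variants for 23 (45.1%) and fragments for 10 (19.6%). The translation factor genes lay nearer to all names in exact matches, with 22 of 48 (45.8%), and in variants, with 28 (58.3%). Their fragments, with 14 (29.2%), lay nearer to the cytosolic set (16.1%) than to all names (46.7%).

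Gene size moved with these shares, and with the transcripts of all samples counted the exact share of the ribosomal protein genes was above that of all names in each of the 3 classes of exon number up to 7 exons. With at most 2 to 3 exons it was 11 of 14 genes (78.6%), against 44.8% of all names. With 4 to 5 exons it was 14 of 24 (58.3%), against 41.1%. With 6 to 7 exons it was 8 of 16 (50%), against 38.7%. Variants went the other way along the same axis: 1 of 14 (7.14%), 11 of 24 (45.8%) and 11 of 16 (68.8%), against 27.5%, 43.2% and 55.9% of all names. The classes above 7 exons held 1 gene each, RPL7A without an exact match and RPL3L with one. In the smallest genes variants were thus rarer than over all names, and in the genes with 6 to 7 exons they were not.

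As assembled, the genes were short in every dimension. Whether the assembled or the reference transcripts were complete was not tested. The median of the most exons on 1 transcript was 5 (quartiles 3.75 and 6), against 6 over all names (4 and 10). The median longest transcript had 784 exon bases (532 and 1140.75), against 1861 over all names. The median span on the genome was 3117 bases (1973.25 and 4594), against 9475.5. The mitochondrial set had the same median of 5 exons, with 953 exon bases and a span of 4267 bases, and the translation factors had 7 exons, 1759.5 exon bases and 9228.5 bases. Over spliced exact matches alone, 34 in the ribosomal protein genes and 2724 over all names, the median last exon had 279.5 and 857 bases and the median first exon 112 and 140 bases.

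**Figure D2:**
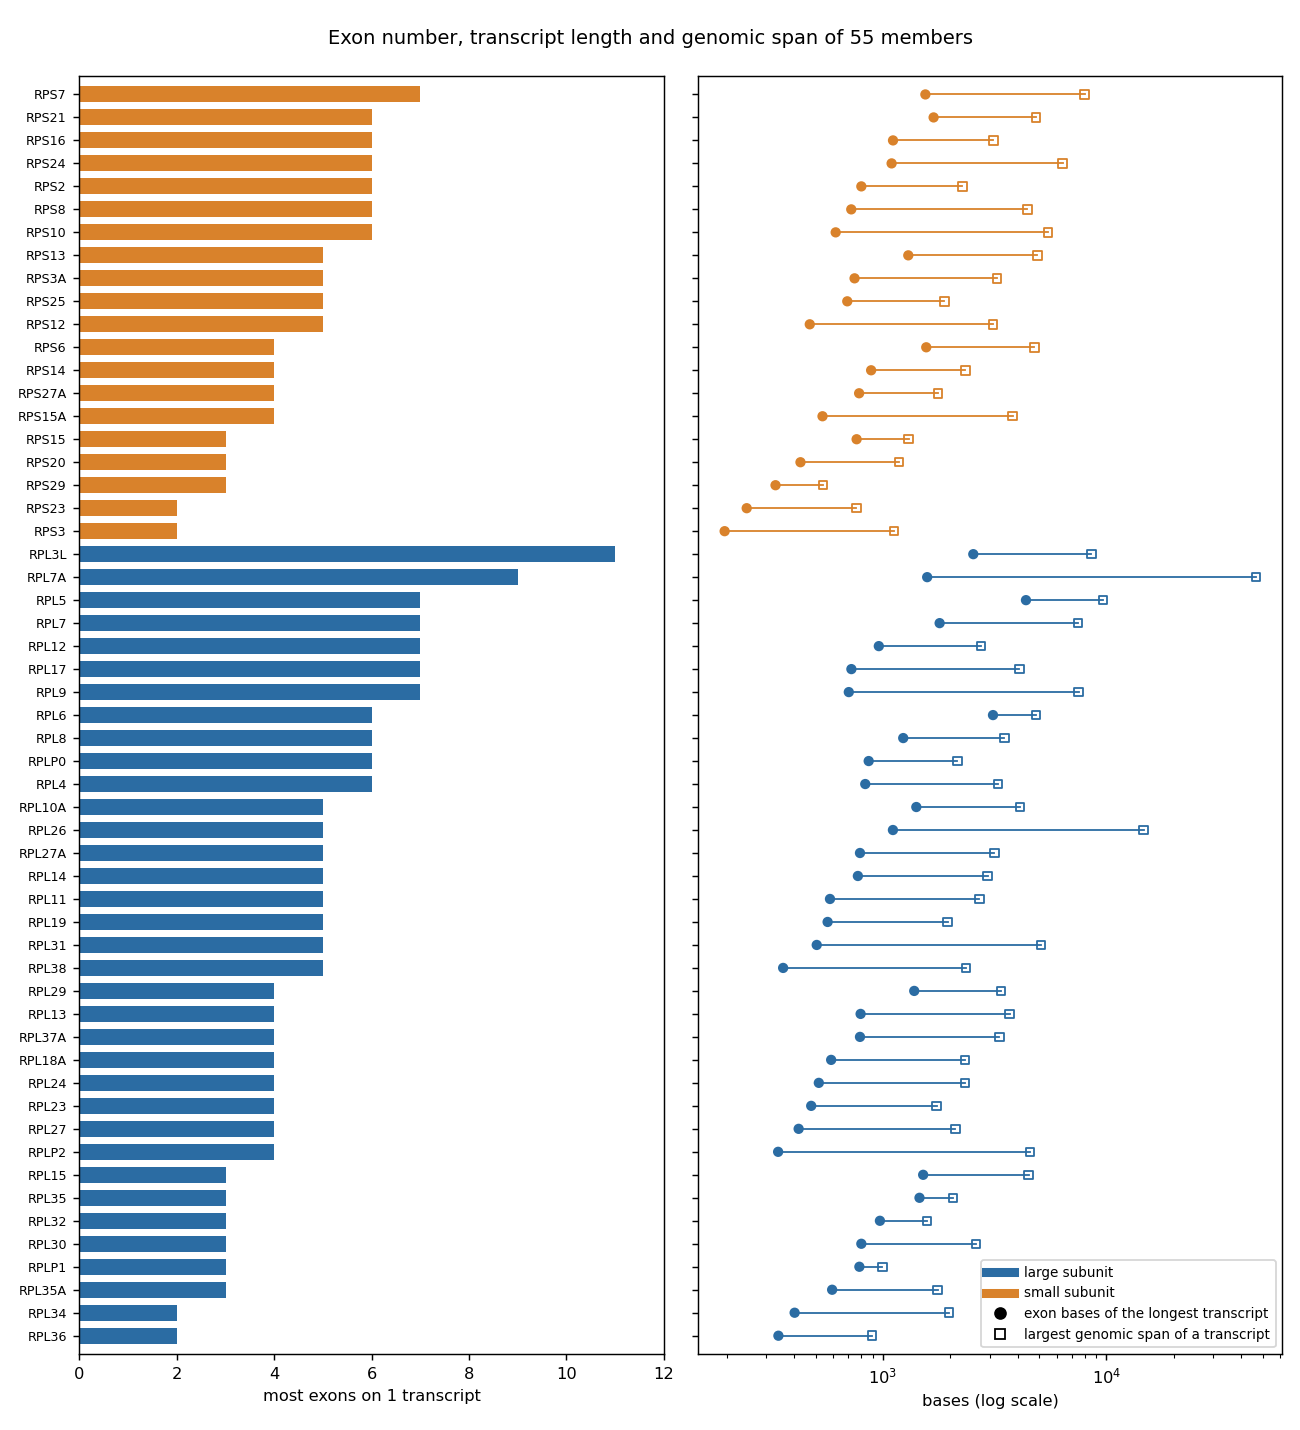
Left, the most exons on 1 transcript for 55 of the 56 genes; right, on a log scale in bases, the exon bases of the longest transcript (filled circle) and the largest span of a transcript (open square). RPL3L has the most exons (11) and RPL7A the largest span (46582 bases), far beyond the other genes.

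The spread among the genes was wide. RPL34, RPL36, RPS3 and RPS23 had 2 exons on their largest transcript, 10 genes had 3, 12 had 4, 12 had 5, 10 had 6 and 6 had 7. RPL7A had 9 and RPL3L 11. The shortest longest transcript was that of RPS3, a protein at the messenger RNA entry of the small subunit, with 2 exons of 98 bases each. It was classed as an exact match, but whether its reference transcript covers the whole gene was not tested. The longest was that of RPL5, which carries the 5S ribosomal RNA into the large subunit: it had 4365 bases, of which the last of its 7 exons made up 3543. RPL6 had the next longest, 3108 bases, of which its last exon made up 2472. RPL12, at the base of the stalk, had a single variant of 7 exons and 959 bases over 2754 bases. RPS7, a small-subunit protein, had 2 variants of 7 exons, of which the longer had 1549 bases over 7989 bases. RPL11, the partner of RPL5 on the 5S RNA, had 580 bases in 5 exons. In RPL5 and RPL6 the last exon thus held most of the transcript, which was not particular to them. It also did in RPL29 (1227 of 1381 bases) and RPL35 (1271 of 1458), among others, but not in RPL11 (76 of 580).

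Introns were compact. The 56 genes had 229 distinct introns with a median of 521 bases (quartiles 292 and 858), against 810 (376 and 1809) for 60636 introns over all names, 770 in the mitochondrial set and 682 in the translation factors. Introns under 1000 bases made up 80.8% in the ribosomal protein genes and 57.5% over all names. In 29 genes every intron was under 1000 bases, a count that was not made over all names. The shortest intron, 68 bases, followed the first exon of RPS12. Internal exons differed less, with medians of 116 and 121 bases, and 39.6% of the 164 internal exons had a length that is a multiple of 3, against 38.9% over all names.

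**Figure D3:**
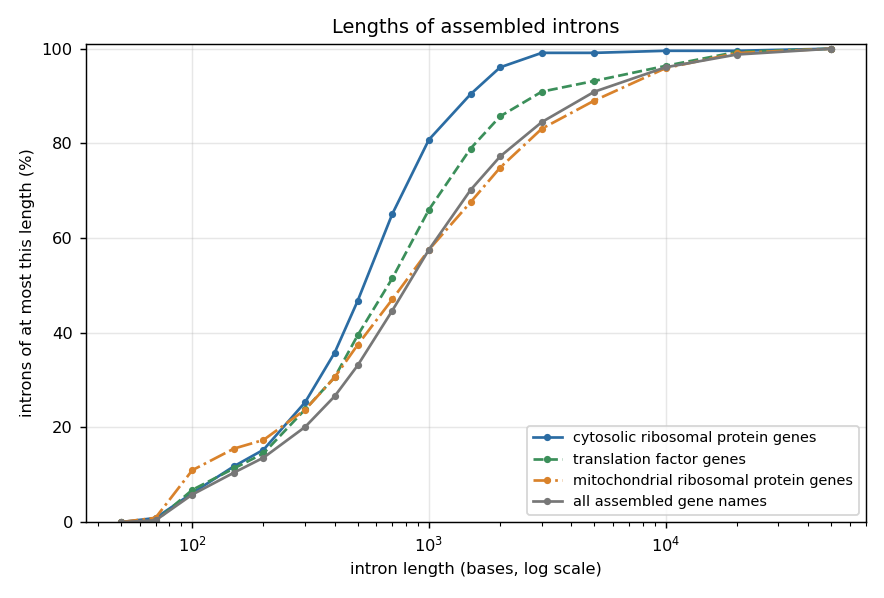
Share of introns (%, vertical axis) that are at most a given length (bases, log scale) in cytosolic ribosomal protein, translation factor and mitochondrial ribosomal protein genes and in all assembled names. The curve of the cytosolic genes lies above the others from 300 bases on, reaching 80.8% at 1000 bases and 99.1% at 3000 bases.

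Introns over 2000 bases were few, 9 in 7 genes: RPL7A with 42948 bases, RPL26 with 9248 and 2831, RPL9 with 2996 and 2772, RPL31 with 2589, RPS24 with 2580, RPS10 with 2524 and RPL7 with 2144. The 2 longest belonged to transcripts that ran into or past a neighbouring gene. RPL26 sits near the tunnel through which the new protein leaves the ribosome. Its transcript credited to normal replicate 2 had 4 exons and 4926 bases of span on chromosome 15 (the gene covers 8743160 to 8757897, plus strand; the sources used here name no build). The transcript credited to normal replicate 1 shared the splice sites of those 4 exons and then crossed the intron of 9248 bases to an exon of 564 bases. All 564 bases also belonged to an assembled transcript of ATP6V0E1, a subunit of the proton pump of acidic organelles, on the same strand. In the RefSeq table the gene next to ATP6V0E1 is RPL26L1, a paralogue of RPL26, and no gene has the symbol RPL26.

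RPL7A, a protein of the large subunit whose gene lies among the surfeit genes in vertebrates, had 2 variants on chromosome 19 (7045239 to 7091820, plus strand). The one credited to normal replicate 1 had 8 exons, 1578 exon bases and a span of 4318 bases. The one credited to normal replicate 2 had 9 exons and 894 exon bases and spanned 46582 bases, since it crossed the intron of 42948 bases to a last exon of 11 bases. An assembled transcript of SURF2, a nucleolar protein, lay wholly inside that intron on the same strand. The 11-base exon lay within the span of SURF1, an assembly factor of cytochrome c oxidase, on the opposite strand and touched none of its exons. The splice sites before that last intron were the same in both variants.

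Very short exons were found at either end of other transcripts. A first or last exon of at most 15 bases stood on 11 of the 78 transcripts (14.1%), against 467 of 15013 spliced transcripts over all names (3.11%). It was a first exon in RPL7, RPL7A, RPL19, RPL31, RPS2 and RPS21, and a last exon in RPL7A, RPL9, RPS2 and RPS27A. First and last exons were not counted apart over all names. RPL9, near the factor-binding site of the large subunit, was the only other gene in which such a last exon followed an intron of more than 2000 bases. Its transcript credited to normal replicate 4 crossed 2996 bases to an exon of 11 bases. RPS27A, a ubiquitin fused to a small-subunit protein, had an exact match of 4 exons and 783 bases (chromosome 2, 2471784 to 2473547, minus strand). Its variant, credited to normal replicate 4, ended in an exon of 8 bases.

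RPL3L, the muscle paralogue of the large-subunit protein RPL3, was the largest gene of the set by exon number. It lay on chromosome 16 (6428761 to 6437340, minus strand). Its exact match, credited to normal replicate 1, had 10 exons and 1560 bases. Its variant, credited to PSE replicate 1, kept the first 9 introns, extended the tenth exon from 336 to 874 bases and added an eleventh of 453 bases after an intron of 81 bases, to 2537 bases in all. The additions lay entirely at the 3′ end. RPS2, on the same strand, was its nearest neighbour in the set, with a gap of 2548 bases between them, and NDUFB10, a subunit of respiratory complex I, was assembled in the gap.

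The stalk proteins had no exact match. RPLP0, the base of the stalk, had a variant credited to normal replicate 1 and a contained transcript credited to normal replicate 2 (chromosome 17, 9972882 to 9975037, plus strand). Both had 6 exons and 864 bases, and they differed in a single place: an intron of 128 bases had the same length in both but was shifted by 6 bases. RPLP1 had 1 contained fragment of 3 exons and 785 bases over 996 bases (chromosome 3, 96784953 to 96785948, plus strand), the most exon-dense of the 3. RPLP2 had 1 contained fragment of 4 exons and 340 bases over 4539 bases (chromosome 5, 15885609 to 15890147, minus strand). The 2 acidic stalk partners thus differed widely in how much of their span was exon.

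Among the 18 genes with several transcripts, RPL17, which lines the exit tunnel, had 4 (chromosome Z, 1102538 to 1106620, plus strand). An exact match credited to normal replicate 3 and a variant credited to normal replicate 2 each had 7 exons, and the exon of 192 bases stood at 2 places 791 bases apart. The contained fragments, both credited to normal replicate 1, had 5 exons and 3 exons. RPS6, the small-subunit protein phosphorylated by the S6 kinases downstream of mTOR, showed the same kind of pair (chromosome Z, 35873637 to 35878395, minus strand). Its exact match and its variant were both credited to normal replicate 1, both had 4 exons and 1563 bases, and the exon of 147 bases stood at 2 places 607 bases apart. Exons of equal length at alternative places were found in these 2 of the 18 genes (11.1%), and in 13 of 4120 gene names over the whole annotation (0.316%). The sequences at these places were not compared.

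**Figure D4:**
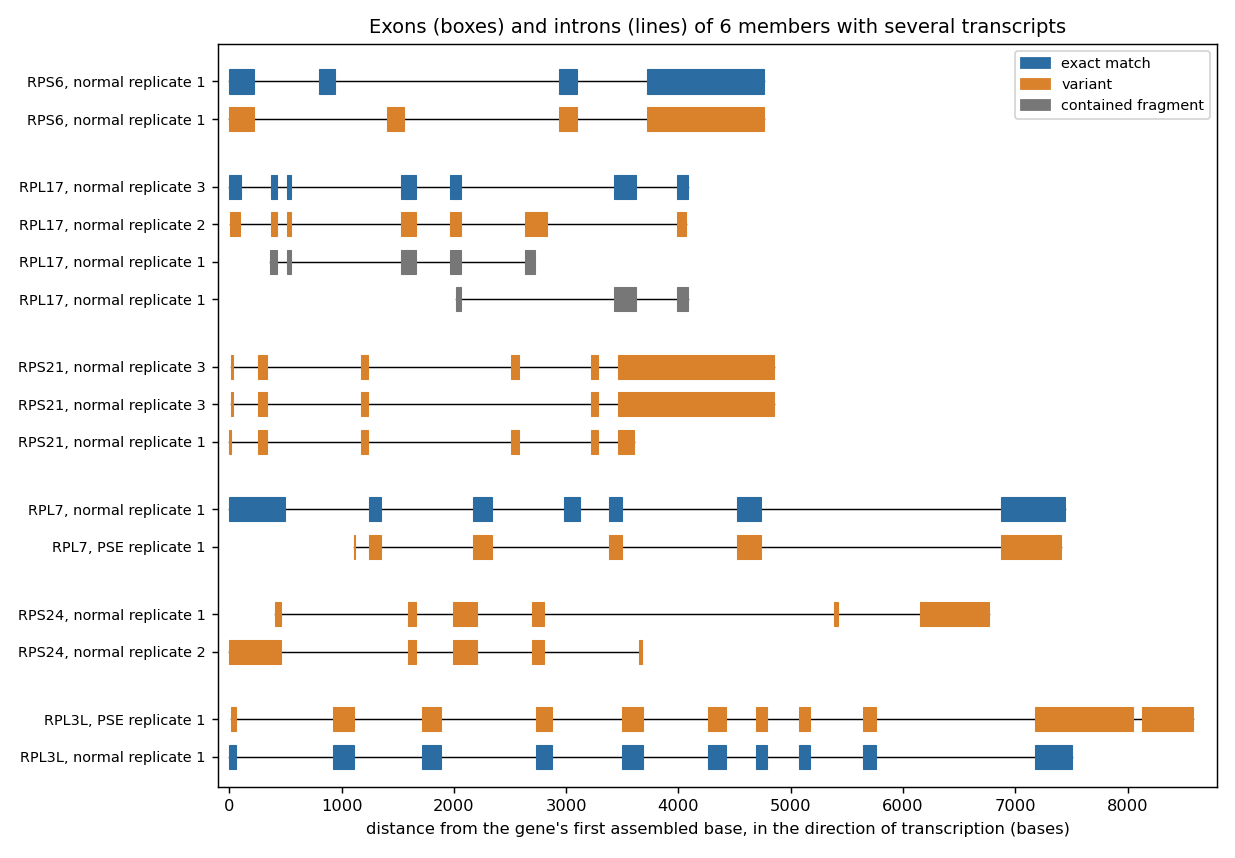
Exons (boxes) and introns (lines) of the transcripts of RPS6, RPL17, RPS21, RPL7, RPS24 and RPL3L, against the distance in bases from the first assembled base of the gene; colours give the class and labels the credited sample. RPS6 and RPL17 each show 1 exon at 2 places (607 and 791 bases apart), RPL7 and RPS21 a skipped exon, RPS24 and RPL3L different 3′ ends.

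An exon was skipped in 2 of the 18 genes (11.1%), against 617 of 4120 names (14.98%). In RPL7 the variant credited to PSE replicate 1 lacked the 138-base exon that the exact match of normal replicate 1 contained, leaving an intron of 1045 bases. In RPS21, 3 variants were assembled. Both credited to normal replicate 3 were alike except for a 72-base exon, present in 1 and skipped by an intron of 1987 bases in the other. Both lengths, 138 and 72, are multiples of 3.

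Different 3′ ends were seen in RPS24, a gene mutated in Diamond-Blackfan anaemia in humans. From a shared 5′ splice site the transcript credited to normal replicate 2 crossed 846 bases to a last exon of 21 bases, and that of normal replicate 1 crossed 2580 bases to an exon of 38 bases and a last exon of 613 bases. Different first exons were seen in RPL31, with 75 and 9 bases before introns of 768 and 560 bases, and in RPL7, with 498 and 9 bases before introns of 748 and 127 bases. An intron of 79 bases in RPS16 and 1 of 80 bases in RPS2, which lies at the messenger RNA entry, were removed in some transcripts and kept inside an exon in others. Shifts of a few bases were also seen: 7 at an intron of 104 or 111 bases in RPS15, 7 at an intron of 263 or 270 bases in RPL17, 8 at an intron of 574 bases in RPS7 and 13 at an intron of 223 or 236 bases in RPS21. Introns kept inside an exon were found in 2 of the 18 genes with several transcripts (11.1%), against 298 of 4120 names (7.23%). Introns of equal length at a shifted place, in RPLP0 and RPS7, were also found in 2 of the 18, against 309 of 4120 names (7.5%). In 7 genes the transcripts were assigned to more than 1 start site, and the share over all names is not given here.

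At 13 genes a transcript was assembled opposite to an exon (23.2%), against 18.8% of all names. Those with 1 exon were present at 10 genes (17.9%), against 15.2% of all names, so the ribosomal protein genes were close to the background. At the 13 genes together there were 26 opposite transcripts, 16 of them single-exon. The latter lay on exons of the ribosomal protein gene over a median of 94.2% of their length, 11 of them over at least 90%. RPL7A supplied more of them than any other gene, and the same overlap was not computed over all names. The sources used here do not say whether the libraries kept the strand, so reads from the gene and from an opposite transcript may not be separable.

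RPL7A had the most, with 5 single-exon transcripts credited to normal replicate 2, each on a different exon and covered by it over 92.3% to 97.2% of its length. Of these, 4 carry the name SURF2 and 1 the name SURF1. RPL13, RPLP0, RPLP1 and RPS24 each had 2 transcripts classed as opposite to an exon under their own symbol, and RPL27 and RPS3A had 1. RPL17 had 1 transcript classed as inside an intron, on the opposite strand, of 201 bases and 95.5% on the gene's exons. RPL32 overlapped a longer neighbour: its whole last exon of 303 bases lay on exons of CAND2 on the opposite strand.

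In 5 genes the locus carried a second gene name: ATP6V0E1 with RPL26, RUNDC1 with RPL27, MBD4 and PLXND1 with RPL32, PXN with RPLP0, and SNORD100 with RPS12. How often this occurred over all names was not computed. SNORD100 is a small nucleolar RNA, and in vertebrates many of these guide RNAs are processed from introns of ribosomal protein genes. In the RefSeq table RPL27, RPL32 and RPLP0 each stand next to RUNDC1, MBD4 and PXN. Except for ATP6V0E1, no other name on the same strand shared exon bases with a transcript of these 5 genes in the 3 forms used.

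The genes were scattered over 25 chromosomes and, for RPS10, an unplaced sequence, with 25 on the plus and 31 on the minus strand. Chromosome 1 held 7 (12.5%, against 12.7% of all names) and chromosome 3 held 5 (8.93%, against 5.11%). Chromosome 5 held 4 (7.14%, against 6.83%). Chromosome Z, a sex chromosome of birds, held 3 (5.36%, against 3.56%): RPL17, RPS6 and RPS23. These shares were not tested. Apart from RPL3L and RPS2, the closest pair was RPL23 and RPL19 on chromosome 29, on opposite strands and 72371 bases apart, with LASP1 and PLXDC1 between them.

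Each merged transcript is credited to 1 sample assembly. Normal replicates 1 to 4 were credited with 59, 8, 3 and 3 of the 78 transcripts, and PSE replicates 1 to 4 with 2, 2, 1 and 0. Normal samples together had 73 (93.6%), and they had 89.6% of all 15928 named transcripts of the same forms. Normal replicate 1 alone had 75.6%, and 49.4% of all named transcripts. It was credited with at least 1 transcript of 55 of the 56 genes, the exception being RPL9. Credit names a single assembly and does not say that a structure was missing from the others, so these counts are no measure of abundance, and the 2 groups were not tested against each other.

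**Figure D5:**
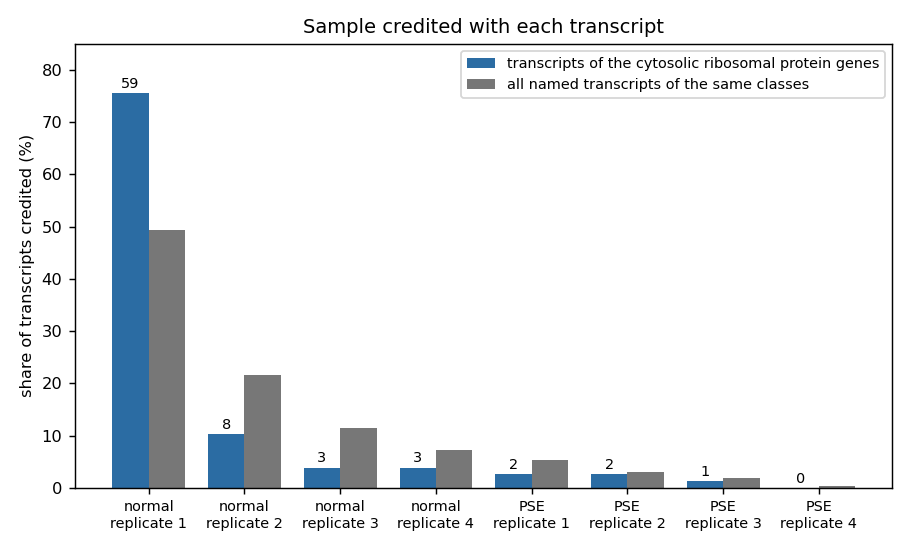
Share of transcripts credited to each of the 8 samples (%, vertical axis), for the 78 transcripts of cytosolic ribosomal protein genes (blue, with their number) and for all 15928 named transcripts of the same forms (grey). Normal replicate 1 holds 59 of the 78 (75.6%), and all PSE replicates together hold 5.

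The 5 transcripts credited to PSE samples were the RPL3L variant with the added 3′ exon and the RPL7 variant without the 138-base exon (both PSE replicate 1), 1 of the 2 variants of RPS7 and the exact match of RPS15 (both PSE replicate 2), and the exact match of RPS16 (PSE replicate 3). RPS15, in the head of the small subunit, and RPS16, whose tail reaches the transfer RNA in the P site, each also had a variant credited to normal replicate 1. All 5 genes therefore also had a transcript credited to normal replicate 1, the assembly credited with transcripts of 55 of the 56 genes. No gene of the 56 was credited to PSE assemblies alone, but the share of such genes over all names was not computed. Since credit names only 1 assembly for each transcript, this does not show which samples held these transcripts.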

How the data were processed

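The transcript annotation deposited by the authors merges the 8 samples and lists exon positions, strand, class, gene name and the assembly each transcript is credited to, per the file's attributes. The submitters' processing notes name TopHat, Cufflinks, HTSeq and DESeq with no version or role. The sources used here do not state the build, the read length or the strand protocol. The deposited table of counts has 8 columns of values. With no name, none could be assigned to a sample, so they were not used here: library depth is unknown and the planned comparison of PSE with normal was not made. Coordinates are 1-based as in the file.

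Parsing used Python 3.11.15, figures matplotlib 3.10.9. Class letters were read as the Cufflinks suite defines them (= exact, j variant, c contained), without a filter on length. Values were counts, medians and quartiles over genes, transcripts or distinct introns, and scripts were tested on simulated data. No test between groups was run; Dixon's test for an outlying sample was applied to the credit counts. Assembly names written RON and ROP were read as the sample titles R0N and R0P. The RefSeq table served for names and neighbours only.

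The members and the gene lists were chosen with earlier results of these data known. Genes named individually were RPL3, RPL3L, the stalk proteins, RPSA, RPS6, RPS27A, the 5 genes with the most transcripts, exons or span, genes with transcripts inside introns or on the opposite strand, and genes that share a locus. A few genes are counted but not reported by name here. Others are named as examples chosen after their values were seen.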

Additional observations from a re-analysis of the deposited data

Results flagged for a closer look

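Normal replicate 1 stood apart from the other normal samples in the credit for ribosomal protein transcripts. It was credited with 59 transcripts, and the next normal sample with 8, a gap of 0.911 of the range, above the critical value of Dixon's test for 4 samples. It was credited with transcripts of 55 genes, a gap of 0.887 of the range. Over all transcripts of the annotation, of any class, the same sample had 20486, a gap of 0.633, which is below the critical value. No PSE sample stood apart in these counts. The sources used here do not state how the credited sample was chosen. Each transcript is credited to 1 assembly only, so the counts of the samples depend on each other. Dixon's test therefore cannot show from these counts that this sample differs. Over all transcripts, credit fell along the label order, from 20486 for normal replicate 1 to 3119 for normal replicate 4. Among PSE samples, which follow the normal samples in the labels, it fell from 2337 for replicate 1 to 49 for replicate 4. Over all 8 samples in that order, each was credited with fewer transcripts than the one before it. How often chance alone would mark a group this way is unknown for counts that depend on each other, and the cause was not tested.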

How the results depend on the processing

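Leaving out the transcripts credited to 1 sample at a time gave between 3 and 34 genes with an exact match and between 12 and 25 with a variant. This is not the same as leaving out the sample, since a structure it shared with other samples is lost too. Both low values came without normal replicate 1, where 16 of the 56 genes kept a transcript and the exact share (5.36%) lay below that of all names (13.9%), and no other sample moved a count by more than 1.5 times. The median exon number ranged from 4.5 to 5.5 and the median intron from 502 to 523.5 bases. With exact matches only, 32 transcripts were credited to normal samples in place of 73, since fewer transcripts are counted. The medians then were 4 exons and 565 bases. Without the 5 genes that share a locus with another name, 32 genes had an exact match and 23 a variant. In all, 44 of 47 alternative values lay within 1.5 times the reported one. No paired analysis was possible because the labels give no pairing of samples, and the columns of the count table carry no names. The alternatives that needed counts, and the comparison of transcript length with coding length, which needs protein sequences, were not run. Unknown depth limits what a missing transcript shows.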
